A study of Mus musculus with 6 samples.

Results

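Anti-PD-1 given without a kinase or aldehyde dehydrogenase inhibitor was compared with control IgG in B16F10 mouse melanoma. The comparison set the pool labelled DMSO plus anti-PD-1 against the pool labelled DMSO plus control IgG, and took every gene with at least 20 counts in either pool. That left 8119 of the 43629 genes in the table. B16F10 is a pigmented melanoma line of C57BL/6 origin. It was injected under the skin of 8-week-old female C57BL/6J mice, which have their own immune system. Treatment was daily, and tumours were collected once those of control mice had reached 2000 mm3. Each treatment's tumours were combined before RNA extraction, so each side of the comparison was 1 library made with a 3′ end kit. The other 4 pools of the study had received AZD5363 with MK1775, or KS100, each with either antibody.

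PD-1 is an inhibitory receptor on activated T cells, and antibodies that block it release T cells from signals given by the ligand PD-L1 on tumour and myeloid cells. Released T cells make interferon-gamma, which in most tissues turns on antigen presentation genes and the chemokines Cxcl9 and Cxcl10. A whole tumour also holds fibroblasts, vessels, macrophages, blood and whatever neighbouring muscle and fat was cut out with it. The comparison asks which of these transcripts differed between tumours that had and had not received the antibody.

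The control pool held 1591673 counts and the anti-PD-1 pool 1002088. After scaling, 1 count in the anti-PD-1 pool stood for 1.54 counts in the control pool, and every ratio below is anti-PD-1 over control on that scale. The interval after a ratio is the 95% exact conditional interval, which covers counting error only. A gene was called higher or lower where it differed by 2-fold or more and the whole interval lay beyond 1.5-fold. With no replicate there is no measure of the spread between mice or tumours, and no p-value is given. The melanocyte gene Dct had 20773 and 11518 counts in control and anti-PD-1, and Pmel 3663 and 1580, so both pools carried the label's tumour transcripts. A keratinocyte list held 21 and 19 counts, with 15 of its 20 members at 0 in both pools.

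Most genes lay close to 1 in this comparison. Over all genes tested, the log2 ratio had a median of -0.004, the 10th percentile -0.68 and the 90th 0.67, and 74.6% of genes were within 1.5-fold. By the rule, 218 genes were higher (2.69% of those tested) and 174 lower (2.14%), or 4.83% in either direction. These shares over all genes are the background for every count of list members called below. The higher genes held 0.889% of counts in control and 2.89% in anti-PD-1, with a median of 27 and 54.5 counts. The lower genes held 3.96% and 1.63%, with a median of 164.5 and 36.5 counts. The higher calls thus rested on fewer reads than the lower calls did. Among them 76 genes were past 4-fold, and among the lower genes 37 were. At the edge of the count minimum, 356 genes had 20 to 22 counts in their better pool and 11 of these were called, while 391 genes with 17 to 19 counts were left out. The minimum was met in the anti-PD-1 pool only by 176 genes, 92 of them called higher, and in the control pool only by 1166, 60 of them called lower.

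**Figure D1:**
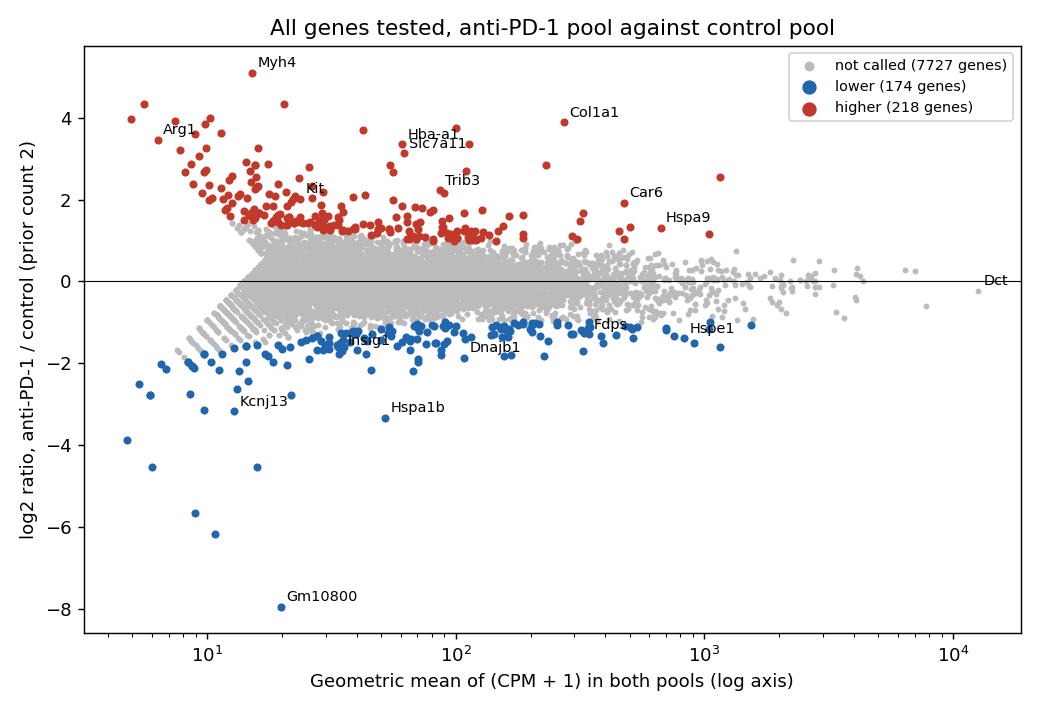
Each point is 1 of the 8119 genes tested, with the geometric mean of CPM (counts per 1000000 of a pool's scaled size) plus 1 in both pools on a log horizontal axis and the log2 ratio of anti-PD-1 over control, with a prior count of 2, on the vertical axis. The 218 genes called higher (red) lie mostly at low to middle abundance, and the 174 called lower (blue) reach further into abundant genes.

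The amino acid stress genes gave 14 higher calls, more than any other of the 69 lists. ATF4 is a transcription factor made when the kinases of the integrated stress response slow translation, and its targets supply amino acids, glutathione and one-carbon units. Of 31 genes of this list tested, 14 were higher and none lower, and 30 had a ratio above 1. The summed counts of the list had a ratio of 1.84 (1.78 to 1.90), and the median log2 ratio of its members was 0.99 against -0.004 over all genes tested.

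Transporters and regulators led this list. Slc7a11, the cystine importer, had 30 counts in control and 182 in anti-PD-1, a ratio of 9.37 (6.34 to 14.3). Trib3, a pseudokinase that restrains ATF4, had 59 and 185, a ratio of 4.84 (3.59 to 6.61). Atf5, a related transcription factor, had 63 and 187, a ratio of 4.58 (3.43 to 6.20). Each of these genes had more raw counts in the anti-PD-1 pool although it was the smaller library. Nupr1, a small stress-induced chromatin protein, had 30 and 89, a ratio of 4.58 (3.0 to 7.18). Cebpb, a partner of ATF4, had 41 and 110, a ratio of 4.14 (2.87 to 6.08). The glycine transporter Slc6a9 stood at 3.42 (2.06 to 5.87) on 23 and 51 counts. Chac1, which degrades glutathione, stood at 2.87 (1.65 to 5.13) on 21 and 39.

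The enzymes of serine, asparagine and folate metabolism were called at ratios of 2.04 to 3.57. The serine pathway runs through Phgdh, Psat1 and Psph. Phgdh had 83 and 138 counts, a ratio of 2.57 (1.94 to 3.41), Psat1 507 and 671, a ratio of 2.04 (1.82 to 2.30), and Psph 188 and 275, a ratio of 2.26 (1.87 to 2.73). All 3 steps were thus called, but Psat1 was at 1.96, under the rule, with scaling factors from these pools alone. Asns, asparagine synthetase, had 99 and 153 counts, a ratio of 2.39 (1.84 to 3.10). Mthfd2, the mitochondrial folate enzyme, had 452 and 687, a ratio of 2.35 (2.08 to 2.65), and Aldh1l2, which follows it in the same pathway, 58 and 134, a ratio of 3.57 (2.60 to 4.94). Shmt2, which feeds them, was not called at 1.66 (1.37 to 1.99).

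Atf4 and several other regulators on the list were not called. Atf4 itself had 1476 and 1295 counts, a ratio of 1.35 (1.26 to 1.46), below the rule. Ddit3, the death-linked factor CHOP, was at 1.91 (1.49 to 2.44), and Ppp1r15a, which reverses the translation block, at 2.40 (1.28 to 4.61), an interval that reaches inside 1.5-fold. Eif2ak3, the kinase PERK, had 37 and 15 counts, a ratio of 0.626 (0.319 to 1.17), and was the list's sole member below 1. Of 21 aminoacyl-tRNA synthetase genes, some of them ATF4 targets, 2 were higher (9.52%, against 2.69% of all genes) and none lower. These were Sars at 3.40 (1.79 to 6.73) and Dars at 2.05 (1.62 to 2.60). Dars was at 1.96 with factors from these pools alone. Of 23 genes tested on the endoplasmic reticulum chaperone list, none was higher and 2 were lower. These were Atf6 at 0.411 (0.309 to 0.539) and Selenos at 0.406 (0.317 to 0.513), which are not themselves chaperones. The chaperone gene Hspa5 was at 1.12 (1.06 to 1.18).

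Promoters of these genes are shown because the list's members moved together and ATF4 reads a known short element. Promoter sequences from RefSeq (GRCm38.p6), covering 250 bases before to 50 after the gene's start, were searched on both strands for TGATGNAA, a form of the ATF4 element. The element was found in 5 of the 13 higher genes with a promoter (38.5%), Chac1, Slc7a11, Asns, Nupr1 and Trib3, and in 1 of the 13 not called (7.69%), Slc1a4. Over all 27025 genes with a promoter the share was 4.51%. A match describes these letters and no binding was measured. Capitals mark the element, which reads as its complement where it lies on the other strand. The Slc7a11 promoter (chr3:50443564-50443863, minus strand) holds 2 matches, 66 and 47 bases before the start. In Nupr1 (chr7:126625421-126625720, minus strand) the match begins 110 bases before the start, and in Trib3 (chr2:152344011-152344310, minus strand) it begins at base 15 of the transcribed part.
Slc7a11: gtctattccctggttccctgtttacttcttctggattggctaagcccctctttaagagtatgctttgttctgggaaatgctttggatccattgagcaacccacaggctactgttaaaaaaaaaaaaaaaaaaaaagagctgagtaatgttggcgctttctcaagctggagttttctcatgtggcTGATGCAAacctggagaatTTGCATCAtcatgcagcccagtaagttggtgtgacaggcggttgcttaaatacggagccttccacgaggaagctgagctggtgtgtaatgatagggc
Nupr1: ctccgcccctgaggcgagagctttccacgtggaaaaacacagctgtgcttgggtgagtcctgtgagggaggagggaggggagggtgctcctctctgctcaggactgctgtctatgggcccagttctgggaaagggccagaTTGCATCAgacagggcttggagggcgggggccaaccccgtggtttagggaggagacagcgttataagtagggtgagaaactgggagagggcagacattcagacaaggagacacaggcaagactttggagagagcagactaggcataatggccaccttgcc
Trib3: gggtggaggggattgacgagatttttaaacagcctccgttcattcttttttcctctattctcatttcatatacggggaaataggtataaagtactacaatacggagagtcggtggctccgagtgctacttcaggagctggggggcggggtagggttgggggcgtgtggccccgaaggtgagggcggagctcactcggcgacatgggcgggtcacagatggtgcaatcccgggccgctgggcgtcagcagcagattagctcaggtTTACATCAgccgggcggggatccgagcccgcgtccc

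Cholesterol synthesis genes were among the lower calls. Cells make cholesterol from acetyl-CoA through mevalonate, and the transcription factor SREBP2 turns the whole pathway on when membrane sterol is low. Of 18 enzymes tested 7 were lower and none higher, and none had a ratio above 1. Their summed counts had a ratio of 0.529 (0.5003 to 0.559), and the median log2 ratio was -0.87. The called genes span the pathway, and Sqle and Msmo1 sat at the edge of the rule.

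At the mevalonate end, Mvk, mevalonate kinase, had 94 and 19 counts, a ratio of 0.312 (0.180 to 0.515), and Mvd, the decarboxylase, 128 and 35, a ratio of 0.422 (0.282 to 0.618). Fdps, which makes farnesyl diphosphate, had 819 and 215, a ratio of 0.405 (0.347 to 0.472). In each of these the control pool held more than 3 times the raw counts. Fdft1, the first committed sterol step, had 81 and 21 counts, a ratio of 0.400 (0.235 to 0.653). Sqle had 548 and 177 and Msmo1 739 and 239, with ratios of 0.499 each. Both lost their call with DESeq2 factors, each at a ratio of 0.51, and Sqle, Msmo1 and Fdft1 lost it with library totals. Hmgcs1 at 0.568 (0.464 to 0.693) and Dhcr7 at 0.443 (0.283 to 0.676) were not called.

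The feedback genes of the pathway were split. Insig1, which holds SREBP in the endoplasmic reticulum and is itself an SREBP target, had 95 and 18 counts, a ratio of 0.293 (0.166 to 0.488). Stard4, a sterol carrier, had 179 and 48, a ratio of 0.414 (0.295 to 0.572). Srebf2, which encodes SREBP2, had 267 and 121, a ratio of 0.7 (0.560 to 0.871), and was not called. Abca1, the sterol exporter, had 3 and 13 counts and was under the count minimum. Of 16 genes of uptake, export and SREBP control, 1 was higher, Lpl, and 2 lower. Among 16 fatty acid synthesis genes only Acsl3 was called, at 0.408 (0.345 to 0.480) on 704 and 186 counts, while the desaturase Scd2, with 2887 and 964 counts, lay just inside the rule at 0.516 (0.479 to 0.555) and Fasn was at 0.862 (0.717 to 1.03). In fatty acid oxidation 1 of 16 genes was higher, Cpt1a, the gate of mitochondrial import, at 2.70 (1.67 to 4.47).

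The sterol element TCACNCCAC was found in none of the 3 lower cholesterol genes with a promoter in RefSeq and in 1 of the 10 not called, Hmgcs1, against 1.44% of all genes. Promoters were matched for 13 of the 18 genes.

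The cytosolic heat shock list gave 3 lower calls. HSF1 turns on many of these chaperones when proteins unfold. Of 24 cytosolic heat shock genes tested 3 were lower (12.5%, against 2.14% of all genes) and none higher, and the summed ratio was 0.748 (0.728 to 0.769). Hspa1b, inducible Hsp70, had 255 counts in control and 15 in anti-PD-1, a ratio of 0.0909 (0.0501 to 0.153). Its value is uncertain as a single gene, because Hspa1a is a near-identical copy. Dnajb1, its partner, had 315 and 55 counts, a ratio of 0.270 (0.199 to 0.360), and Hsp90aa1, inducible Hsp90, 1580 and 466, a ratio of 0.456 (0.410 to 0.505). Hsph1 at 0.502 (0.344 to 0.720) and Bag3 at 0.536 (0.434 to 0.660) lay just inside the rule. The constitutive forms were nearer 1, with Hspa8 at 0.757 (0.682 to 0.839) and Hsp90ab1 at 0.735 (0.705 to 0.765). The factor genes Hsf1 and Hsf2 were not called, at 1.28 (0.657 to 2.45) and 1.71 (1.07 to 2.75).

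The mitochondrial chaperones went both ways. Hspe1, the cap of the mitochondrial chaperonin, had 2045 and 505 counts, a ratio of 0.381 (0.345 to 0.421), and its partner Hspd1, which shares a divergent promoter with it, 823 and 364, a ratio of 0.683 (0.602 to 0.774). Hspa9, the mitochondrial Hsp70, had 644 and 1038, a ratio of 2.49 (2.25 to 2.75). These members of the same folding system were thus called in opposite directions. The cytosolic chaperonin list (CCT) had 0 of 13 genes called and a summed ratio of 0.845 (0.814 to 0.878).

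The heat shock element was searched as GAANNTTC, which reads the same on both strands. It was found in 1 of 2 lower cytosolic genes with a promoter and in 7 of 16 not called, against 9.04% of all genes. Hspa1b (chr17:34959189-34959488, minus strand, match 104 bases before the start) and Hspe1 (chr1:55087898-55088197, plus strand, match 84 bases before) are shown as the lower genes of each list that hold it, in capitals.
Hspa1b: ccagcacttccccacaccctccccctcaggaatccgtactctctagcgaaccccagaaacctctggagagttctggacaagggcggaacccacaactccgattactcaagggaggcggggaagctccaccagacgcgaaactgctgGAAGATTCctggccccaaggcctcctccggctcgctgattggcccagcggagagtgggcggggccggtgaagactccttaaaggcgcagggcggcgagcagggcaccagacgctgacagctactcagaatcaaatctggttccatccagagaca
Hspe1: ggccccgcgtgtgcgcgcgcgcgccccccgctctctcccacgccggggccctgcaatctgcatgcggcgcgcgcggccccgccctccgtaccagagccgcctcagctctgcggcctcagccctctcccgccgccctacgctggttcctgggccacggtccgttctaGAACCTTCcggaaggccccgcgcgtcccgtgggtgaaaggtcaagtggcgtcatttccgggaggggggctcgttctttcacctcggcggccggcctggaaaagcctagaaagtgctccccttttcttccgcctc

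**Figure D2:**
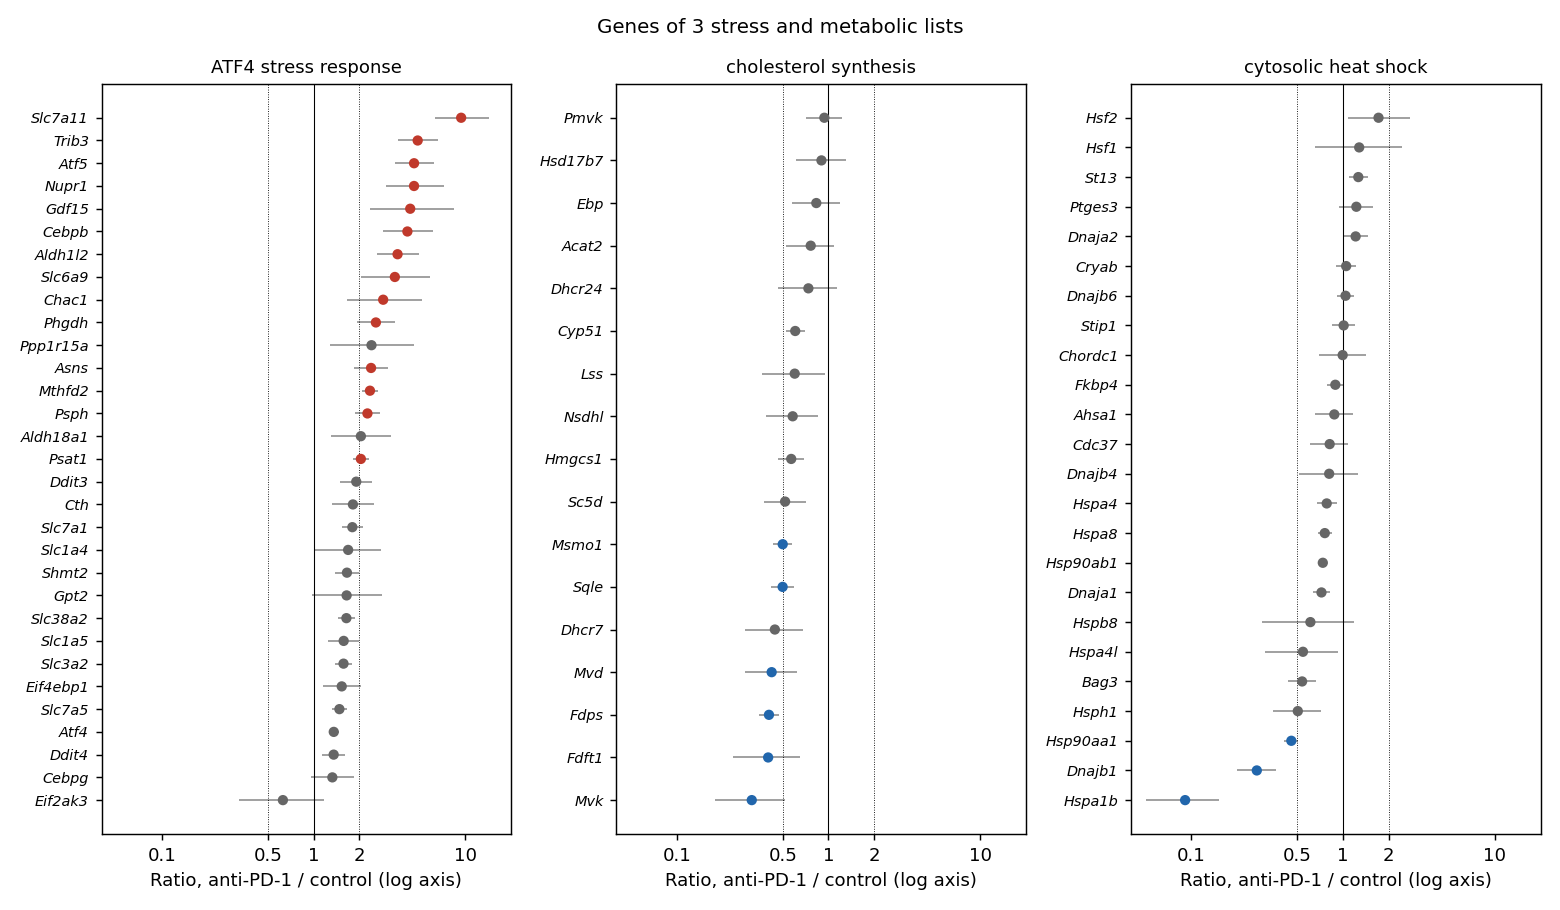
Points give the ratio of anti-PD-1 over control for the genes tested of the ATF4, cholesterol synthesis (1 gene left out) and cytosolic heat shock lists on a log axis, with 95% counting intervals as bars and dotted lines at a ratio of 0.5 and 2. Red points are called higher and blue points lower: 14 of 31 ATF4 genes are red, the blue cholesterol genes lie from Mvk at 0.312 to Sqle and Msmo1 at 0.499, and Hspa1b is the farthest heat shock gene at 0.0909.

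Of the host tissue lists, skeletal muscle and collagens had the highest summed ratios. In a bulk tumour, more cells of a type and more RNA per cell cannot be told apart, and this holds for each cell type list below. Higher calls were made for 11 of 13 collagen genes and lower calls for none. The collagens summed to a ratio of 6.52 (5.94 to 7.17), and to 4.47 without Col1a1. Of the 13, 5 met the count minimum in the anti-PD-1 pool only, which favours a higher call for them. The fibrillar chain gene Col1a1 had 106 and 1042 counts and Col3a1 29 and 146, a ratio of 7.78 (5.19 to 12.0). Col5a2, which starts fibrils, had 8 and 48, a ratio of 9.27 (4.34 to 22.7), and the beaded-filament gene Col6a3 32 and 140, a ratio of 6.76 (4.58 to 10.3). Of the basement membrane chains, Col4a1 was at 3.23 (2.5 to 4.19) and Col4a2 at 3.21 (1.96 to 5.40). Col15a1 at 2.05 (1.49 to 2.84) and Col16a1 at 1.28 (0.939 to 1.73) were not called.

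Other matrix genes followed in part. Among 23 of them, 11 were higher and none lower, and their sum stood at 1.76 (1.67 to 1.85). For 7 of the 23 the minimum was met in anti-PD-1 only. They include decorin (Dcn), with 6 and 40 counts, fibrillin 1 (Fbn1), with 7 and 38, thrombospondin 2 (Thbs2), with 7 and 42, and tenascin C (Tnc), with 13 and 56. Fibronectin (Fn1) had 278 and 574 counts, a ratio of 3.19 (2.76 to 3.69). Of 12 genes that process or cross-link collagen only Lox was higher, and the list summed to 1.09 (1.02 to 1.17). Matrix proteases and inhibitors had 3 of 15 higher, among them Serpinf1 and Mmp12, at ratios of 3.65 and 3.51.

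Mesenchymal and vessel markers were called in part. Of 6 fibroblast markers tested 3 were higher, Pdgfrb at 4.55 (2.62 to 8.25), Acta2 at 5.04 (2.97 to 8.92) and C3 at 4.63 (2.01 to 11.9). All 3 met the count minimum in the anti-PD-1 pool only, which favours a higher call for them. Of 5 pericyte and smooth muscle markers 4 were higher, Tpm2, Acta2, Mcam and Rgs5, and the list summed to 2.93 (2.54 to 3.38). For 2 of these 4 the minimum was likewise met in anti-PD-1 only. Tpm2 was at 19.3, far above Mcam at 3.09 and Rgs5 at 2.29. The source of the Tpm2 reads, which can include skeletal muscle, was not tested. Of 15 endothelial genes 4 were higher and none lower. Besides Esam and Plvap they were Cdh5, the junction cadherin, at 2.50 (1.54 to 4.12), and Apln, made by tip cells, at 2.76 (1.83 to 4.23). Kdr, the VEGF receptor, was not called at 1.72 (1.35 to 2.19), and Cdh5 lost its call with factors from these pools alone. Of 9 TGF-beta targets 5 were higher, among them Acta2, Tgfbi at 3.0 (1.66 to 5.63), Ccn2 at 2.83 (1.69 to 4.87) and Id3 at 2.43 (1.56 to 3.82), while Id2, with 782 and 312 counts, stood at 0.616 (0.539 to 0.704) and held 45.2% of the list's counts, and the list's sum was 0.985 (0.907 to 1.07). Among the 5 higher TGF-beta targets, 2 met the minimum in anti-PD-1 only.

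Muscle, fat and blood markers moved with the stromal genes. Among 10 skeletal muscle genes 9 were higher, and the list summed to 8.49 (7.23 to 10.02). All but 2 of these 10 met the minimum in anti-PD-1 only. Ttn had 16 and 154 counts, the fast myosin gene Myh2 6 and 51, a ratio of 13.1 (5.63 to 37.4), and Myl1 7 and 42, a ratio of 9.27 (4.12 to 24.4). Muscle progenitor and regeneration genes gave none to test, with 7 of 13 at 0 in both pools. Of 6 fat cell genes 4 were higher, including the fatty acid transporter gene Cd36 at 6.76 (3.08 to 16.9), and Cfd, an adipocyte protease, had 0 and 17 counts. Among the 4 higher fat cell genes, 2 met the minimum in anti-PD-1 only. Globin genes took 0.0570% of counts in control (0.0534 to 0.0609, exact binomial interval) and 0.363% in anti-PD-1 (0.352 to 0.375). Their part in the stromal differences was not tested. Without the muscle, fat and erythroid lists, a setting added after seeing the data, 201 higher and 173 lower calls were left. That setting only drops the listed genes and keeps the scaling, so it does not test the calls that were left.

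**Figure D3:**
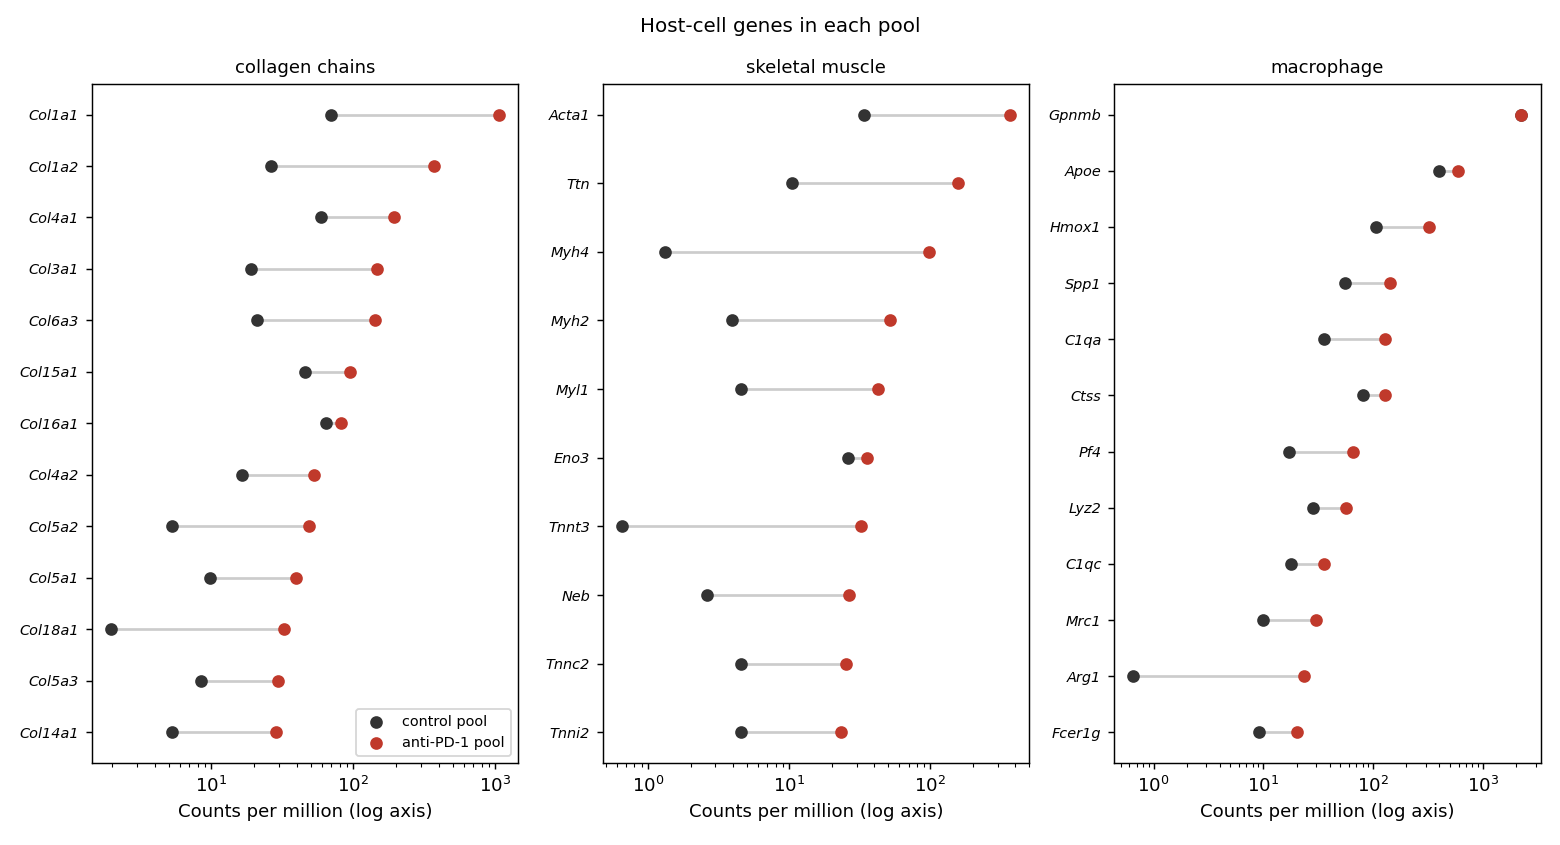
Dots give CPM, on a log axis, in the control pool (black) and the anti-PD-1 pool (red) for every collagen, skeletal muscle and macrophage gene tested, joined by a line per gene. The minimum of 20 counts was met in anti-PD-1 only by 5 of the 13 collagen, 8 of the 10 muscle and 3 of the 12 macrophage genes, so their red dots had to lie to the right. Gpnmb among the macrophage genes has both dots at the same place.

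The macrophage list had 6 of 12 genes higher and none lower, while lymphocyte genes gave few counts. Among the 6, 2 met the count minimum in anti-PD-1 only, Arg1 and Mrc1, which favours a higher call for them. Arg1, the arginine-degrading enzyme of suppressive myeloid cells, had 1 and 23 counts, and its ratio rests on a single control count. Hmox1, which degrades heme, had 160 and 321, a ratio of 3.10 (2.56 to 3.77), Spp1 (osteopontin) 84 and 139, a ratio of 2.56 (1.94 to 3.39), and the mannose receptor gene Mrc1 15 and 30, a ratio of 3.09 (1.61 to 6.18). Common macrophage markers were under the count minimum: Csf1r had 7 and 18 counts, Adgre1 8 and 11, and Cd68 15 and 17. The list's summed ratio of 1.30 (1.24 to 1.35) was 2.09 without Gpnmb, which melanocytes also make and which was at 1.00 (0.948 to 1.06). A neutrophil list had 8 and 30 counts, a ratio of 5.79 (2.59 to 14.6), of which G0s2, also a fat cell gene, gave 2 and 18.

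T cell genes had 41 and 52 counts over the list, a ratio of 1.96 (1.28 to 3.02), but 12 of its 24 members were at 0 in both pools. Most counts came from Tcf7, with 20 and 24, Thy1, with 6 and 17, and Lck, with 8 and 6. Thy1 is also made by fibroblasts. Defining genes of the T cell receptor complex and its co-receptors were at or near 0: Cd3e, Cd3d, Cd3g, Cd4 and Trac were listed at 0 in both pools, and Cd8a had 1 and 0 counts. Cytotoxic genes had 27 and 26 counts, a ratio of 1.49 (0.834 to 2.65), and without Ccl5 the ratio was 0.662. Differences in these defining genes were not detectable at this depth. Of 7 checkpoint genes tested none was called. Cd274, the PD-L1 gene, had 6 and 0 counts, below the minimum.

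Monocyte chemokines gave higher calls, and most interferon-gamma genes tested had a ratio below 1. Of 8 chemokine genes 4 were higher, the monocyte attractants Ccl8 with 6 and 31 counts, Ccl9 with 5 and 20 and Ccl7 with 11 and 25, and Cxcl10 with 119 and 158. The first 3 met the minimum in anti-PD-1 only. The ratio of Ccl7 was 3.51 (1.67 to 7.90). Cxcl10, also an interferon target, lost its call with factors from these pools alone, at 1.96. Cxcl9, another interferon-gamma target, had 20 and 8 counts, a ratio of 0.618 (0.235 to 1.46). Of 13 interferon-gamma genes tested Cxcl10 was the 1 higher, and 3 had a ratio above 1, with a median log2 ratio of -0.55. For 6 of the 13 the minimum was met in control only, which favours a ratio below 1 for them. The summed counts of the whole list had a ratio of 0.983 (0.8875 to 1.089). The GTPase gene Ifi47 had 50 and 15 counts, a ratio of 0.463 (0.242 to 0.839). Irf1 was at 1.37 (1.07 to 1.75). Of 8 type I interferon genes none was called, and the sum was 0.758 (0.691 to 0.831).

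Antigen presentation gave 2 lower calls in the peptide supply of class I, among 15 genes of that list. They were the peptide transporter gene Tap2 with 22 and 2 counts and the immunoproteasome gene Psmb9 with 27 and 4. Both are among 5 of the 15 that met the minimum in control only, which favours a lower call for them. The list's summed ratio was 1.04 (0.985 to 1.09). Psmb9 lost its call with DESeq2 factors and with library totals. The class I genes H2-K1, at 1.27 (1.08 to 1.5), and B2m, at 0.827 (0.753 to 0.907), were not called, and H2-K1 is uncertain as a single gene because class I genes are closely alike. Of 8 MHC class II pathway genes 1 was higher, the lysosomal protease gene Lgmn at 2.09 (1.73 to 2.53). Complement genes had 2 of 7 higher, C1qa and C3.

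Pigment genes were mostly below 1, and few were called. The pigment list had 3 of 21 lower and 2 with a ratio above 1, and summed to 0.788 (0.776 to 0.800). Trpm1, a melanocyte cation channel gene, had 1824 and 469 counts, a ratio of 0.397 (0.358 to 0.440), Slc24a5, a melanosome ion exchanger, 2373 and 687, a ratio of 0.447 (0.410 to 0.487), and the potassium channel gene Kcnj13 61 and 3. The enzyme genes Tyr at 0.699 (0.413 to 1.15) and Tyrp1 at 0.704 (0.662 to 0.748) were not called. Mitf, the lineage regulator, was at 1.05 (0.976 to 1.13) and Sox10 at 1.59 (1.38 to 1.84), while the receptor gene Kit, with 16 and 47 counts, was the 1 of 11 regulator genes called. Kit met the count minimum in anti-PD-1 only and Kcnj13 in control only, which favours a call in the direction seen. The dedifferentiated melanoma list had 4 of 11 higher, among them Ccn2, Fn1 and Tnc, which are also on the matrix or TGF-beta lists, and 1 lower, the AP-1 gene Jun with 89 and 18 counts.

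The mitosis, replication and nuclear respiratory chain lists summed to less than 1 under each scaling tried. Of 42 mitosis genes 1 was lower, or 2.38% against 2.14% of all genes tested. It was the import receptor gene Kpna2, with 46 and 2 counts, which met the minimum in control only. The mitosis list summed to 0.851 (0.829 to 0.875). Mki67 was at 0.818 (0.671 to 0.994) and Top2a at 0.893 (0.819 to 0.973). None of 45 replication genes was called, with a sum of 0.826 (0.800 to 0.853). The nuclear respiratory chain list had 8 of 75 genes lower (10.7%) and none higher, and summed to 0.779 (0.768 to 0.791). They include the complex III gene Uqcrb with 773 and 209 counts, the complex IV gene Cox8a with 371 and 107, and the complex I gene Ndufs5 with 75 and 14. Ribosomal protein genes summed to 0.995 (0.9861 to 1.004) with 9 of 77 lower and none higher. Several of these genes have pseudogene copies that can split their reads.

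Stress pathways outside ATF4 gave fewer calls. Of 20 p53 targets 4 were higher, the arrest gene Cdkn1a with 105 and 144 counts, a ratio of 2.12 (1.64 to 2.75), Trp53inp1 with 25 and 47, a ratio of 2.90 (1.75 to 4.92), and Rrm2b and Gdf15. Of these 4, 2 met the count minimum in anti-PD-1 only, which favours a higher call for them. Gdf15 is also an ATF4 target, Rrm2b lost its call with factors from these pools alone, and Mdm2 was at 1.14 (0.959 to 1.35). Of 25 hypoxia genes 5 were higher and 1 lower. Among the 5, 2 met the minimum in anti-PD-1 only, Angptl4 being 1 of them. Angptl4, a lipase inhibitor, had 3 and 42 counts, Ndrg1 104 and 168, a ratio of 2.50 (1.94 to 3.22), and Pfkfb3, a glycolysis activator, 36 and 59, a ratio of 2.53 (1.65 to 3.94), and Higd1a 1065 and 323, a ratio of 0.468 (0.412 to 0.531). Glycolysis genes had 1 higher, the lactate exporter gene Slc16a3 at 2.30 (1.75 to 3.03), and 3 lower of 18, among them hexokinase 2 (Hk2) at 0.469 (0.373 to 0.585). The NRF2 list had 2 higher, Hmox1 and Slc7a11, and 2 lower, Gsta4 and Ftl1, of 28.

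**Figure D4:**
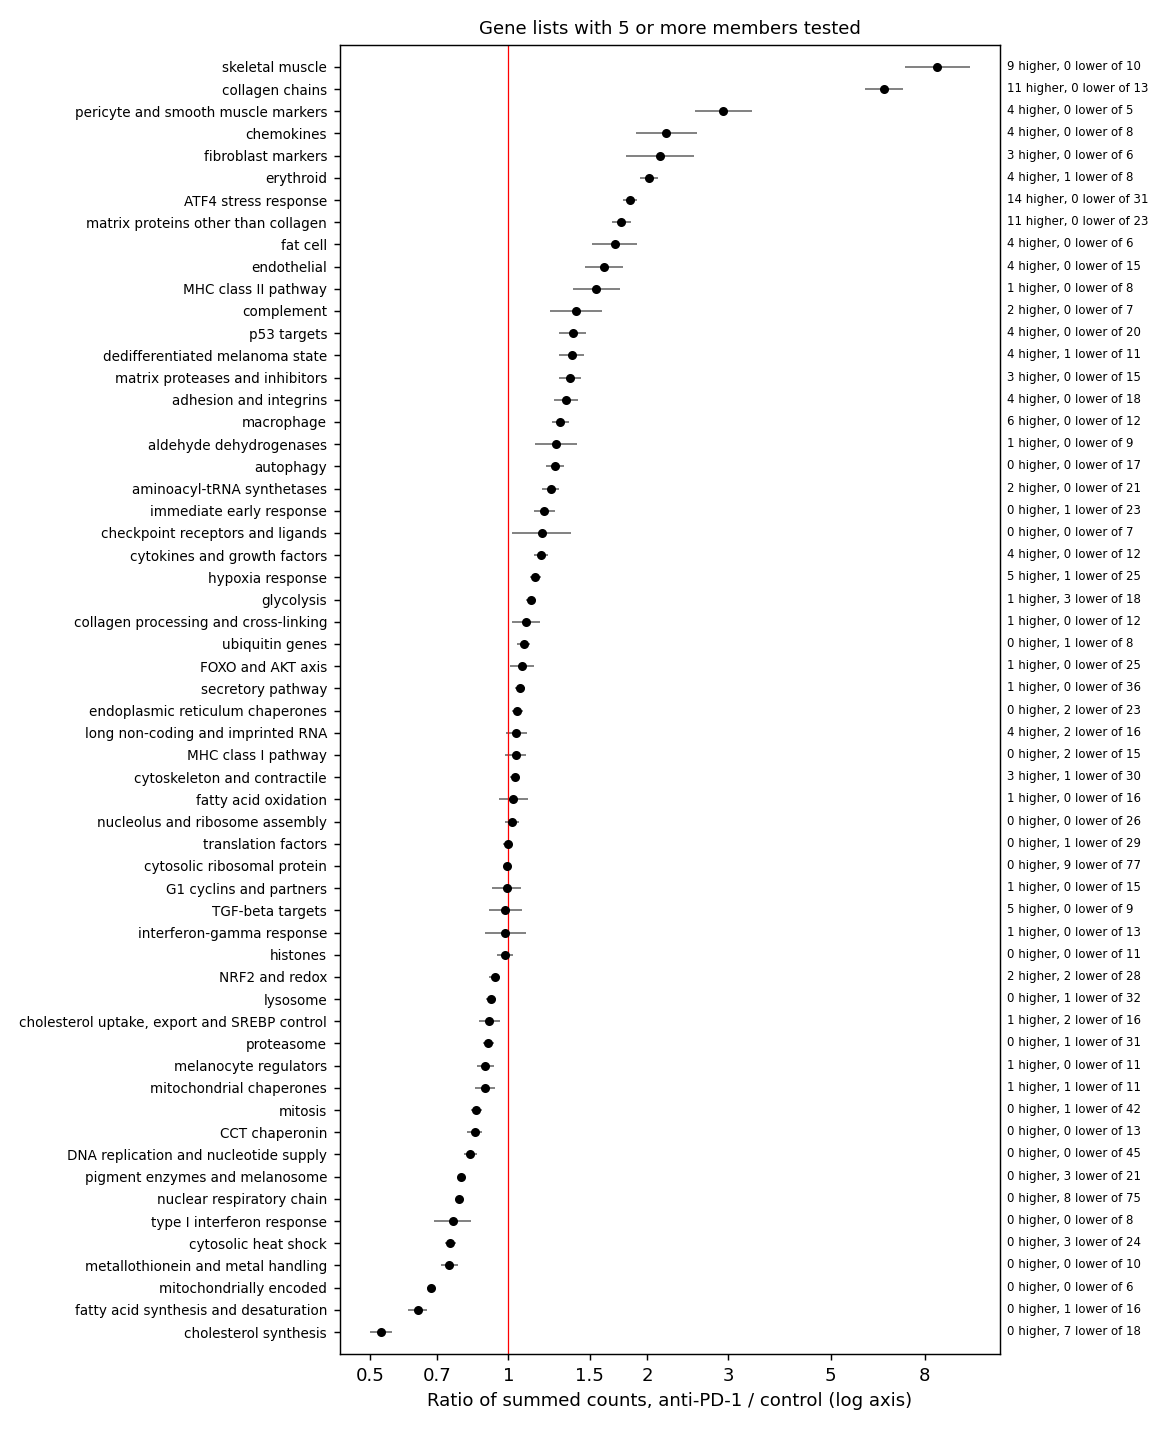
Dots give the ratio of summed counts, anti-PD-1 over control on a log axis, for each list with at least 5 genes tested, with 95% counting intervals and the calls per list at the right. Skeletal muscle at 8.49 and collagen chains at 6.52 stand at the top, and cholesterol synthesis at 0.529 at the bottom.

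Genes outside the lists were named here by size, up to 15 each way. Among the higher genes Hp (haptoglobin) had 0 and 23 counts, at least 11.8-fold higher against 3 counts. Ldb3, with 2 and 44, Fhl1, with 2 and 40, and Xirp2, with 13 and 68, encode muscle cytoskeletal proteins. Sulf2, which edits heparan sulfate, had 64 and 279 counts, a ratio of 6.73 (5.12 to 8.98), and Car6, a secreted carbonic anhydrase, 371 and 915, a ratio of 3.81 (3.37 to 4.31). Serpine2, Ms4a6c, Gda, Fli1, Ankrd1, Dlx6, Fam129a, Cyb5r2 and Tmem179 made up the rest, with 3 to 16 counts in control and 21 to 59 in anti-PD-1. All the higher genes named here except Sulf2 and Car6 met the count minimum in the anti-PD-1 pool only, which favours a higher call for them.

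Among the lower genes Pomp, a proteasome assembly factor, had 2347 and 530 counts, a ratio of 0.349 (0.317 to 0.383). Cited1, a melanocyte transcription cofactor, had 445 and 81, a ratio of 0.281 (0.219 to 0.357), and the lipase gene Mgll 208 and 35, a ratio of 0.260 (0.176 to 0.373). Snrpf, Polr2k, Mrps21, Cystm1, Arl4a, Slc25a14 and Yae1d1 were also lower. Of these, Mrps21, Arl4a, Slc25a14 and Yae1d1 met the count minimum in control only, which favours a lower call for them. The same holds for the predicted genes and ferritin genes below. In anti-PD-1, 3 predicted genes were at 0: Gm10800, with 597 counts in control, Gm21738, with 174, and Gm10801, with 54. Together they took 0.0518% of control counts (0.0484 to 0.0555), and 0 of 1002088 counts in anti-PD-1, whose exact upper limit was 0.000368%. Ftl1-ps1, a pseudogene of ferritin light chain, had 126 and 2 counts, and its parent Ftl1 51 and 4. Both values are uncertain, because such copies can split reads.

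Lower calls were unevenly spread over transcript length. Among protein-coding genes the longest annotated transcript had a median of 2390.5 bases in genes called lower, 3713 in genes called higher and 3559 in genes not called. With genes cut into 5 equal classes by length, in the shortest class, 383 to 2034 bases, 4.47% of genes were lower, and in the longest class, 5538 to 123179 bases, 1.07%. For higher calls the shares were 3.46% and 2.84%. Of the 160 lower protein-coding genes 18 (11.2%) had a processed pseudogene named for them, against 3 of 211 higher (1.42%) and 2.60% of those not called. Mitochondrial ribosomal RNA took 0.116% of control counts and 0.0508% of anti-PD-1 counts. The part of transcript length and of pseudogene copies in the lower calls was not tested.

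**Figure D5:**
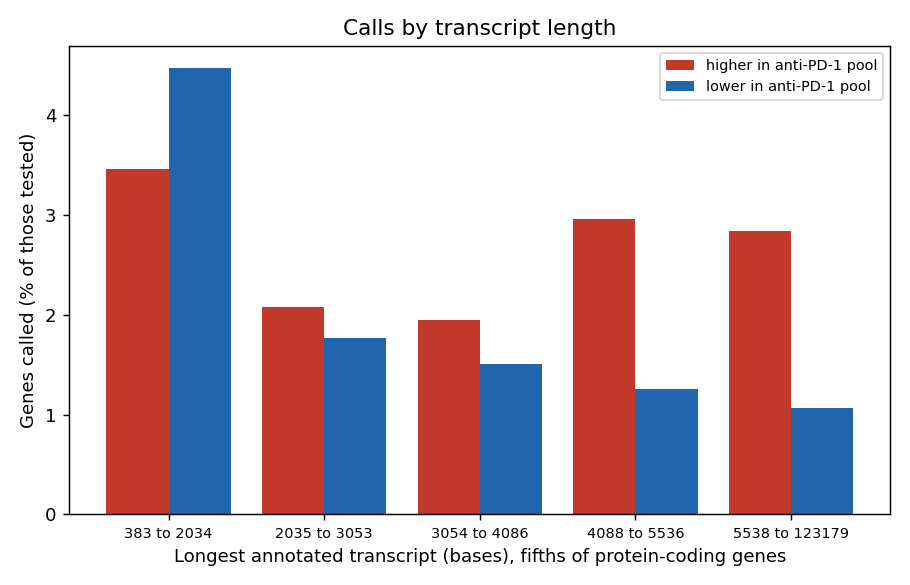
Bars give the percent of protein-coding genes tested that were called higher (red) or lower (blue) in each of 5 equal classes of the longest annotated transcript, in bases. The lower calls drop from 4.47% in the shortest class to 1.07% in the longest, while the higher calls run from 1.95% to 3.46% with no such order.

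The same antibody contrast was available under the inhibitors, in libraries that share no pool with this pair. Under AZD5363 with MK1775 the pools held 26639 and 338474 counts, and 2793 genes were tested, of which 11.1% were higher and 3.72% lower. Mitochondrial ribosomal RNA took 2.23% of counts without the antibody there and 14.6% with it, and its part in these calls was not tested. Of the 218 genes higher with the antibody alone, 57 had 20 counts there, and 19 of them were higher and 1, Psat1, was lower at 0.293. The 19 include the muscle genes Myh4, Acta1, Ttn, Neb and Xirp2, and Cxcl10, C1qa, Lpl and Col1a2. The skeletal muscle list had 2 and 3725 counts there, and the ATF4 list a summed ratio of 0.813 (0.662 to 1.008). Of the 174 lower genes 73 were tested there, and 14 were higher and 6 lower. The 6 were Rpl28, Rpl35, Rps15, Fam168b, Higd1a and Gm10800. Hk2 and Hsp90aa1 were among the 14 that went the other way. Under KS100, with 44748 and 25521 counts, none of the 218 could be tested, and of the lower genes 11 could, with 2 higher (background 4.31%) and 1 lower (34.0%).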

How the data were processed

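RNA from 2 pools of B16F10 tumours was read as 3′ end counts, with a QuantSeq FWD kit on a MiSeq run of 151 cycles per the labels' protocols. The authors deposited whole-number counts per gene for all 6 pools. Per the submitters' processing notes, bcl2fastq, HISAT2 2.1.0 and HTSeq were used with GRCm38. Not given in the sources used here were the strand setting, the annotation and how multiply matching reads were handled.

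TMM factors came from edgeR 4.0.16 over 6 pools, on the 4912 genes kept by its expression filter. A pool's scaled size is its total over those genes times its factor, and counts per 1000000 refer to that size. A call needed 20 counts in 1 pool, a ratio of at least 2 and a 95% Clopper-Pearson interval beyond 1.5-fold. A ratio against 0 was taken against 3 counts, which are 1.96 counts per 1000000 in control and 3.03 in anti-PD-1. Reads carry no molecular identifiers. The calling was tested on simulated data. Names and lengths came from GENCODE M21 and promoters from RefSeq. The 69 gene lists and the members were chosen with earlier results of these data known. Genes outside the lists were named by the interval bound nearest 1, the 15 farthest each way, and Axin2 and Fam168b were named outside this rule. Some genes that met the naming rule are not reported here. Other scalings, minimums and interval rules were tried.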

Additional observations from a re-analysis of the deposited data

How the results depend on the processing

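With an interval beyond 1 in place of 1.5-fold, 371 genes were higher and 335 lower, and with an interval beyond 2-fold 100 and 62. A minimum of 50 counts left 118 higher genes, since fewer could be tested. Without the shortest of 5 length classes, an alternative added after seeing the data that only drops genes, 90 genes were lower. Other normalisations gave between 193 and 237 higher genes and between 151 and 204 lower, and of 191 named calls 4 (DESeq2 factors), 6 (library totals) and 8 (factors from these pools alone) were lost, none reversing. With factors from these pools alone, summed ratios were 1.76 for ATF4 genes, 0.716 for heat shock, 1.24 for macrophage, 0.815 for mitosis, 0.746 for the respiratory chain and 0.754 for pigment genes. With library totals they were 0.769 for heat shock, 0.876 for mitosis, 0.802 for the respiratory chain and 0.810 for pigment genes, and with DESeq2 factors 0.792 for the respiratory chain and 0.801 for pigment genes. Without each list's most abundant gene they were 1.99 for ATF4, 1.15 for MHC class I, 4.47 for collagens, 0.742 for fatty acid synthesis, 0.834 for interferon-gamma, 2.09 for macrophage and 0.738 for pigment genes. Of the sums whose own interval lay off 1, those of 4 lists changed side, namely cytoskeleton (0.987 with factors from these pools alone, and 0.943 without its top gene), melanocyte regulators (1.10), mitochondrial chaperones (1.32) and sex chromosome genes (0.968), the last 3 without the top gene. Another 12 lists, whose intervals held 1, crossed it under at least 1 setting, with values without the top gene of 1.40 for TGF-beta targets and 0.662 for cytotoxic genes. The cause was not tested. No paired analysis was possible because each treatment was 1 pool.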

Other observations

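Growth factor, adhesion and non-coding genes gave further calls. Of 18 adhesion genes 4 were higher, among them Itgb5, an integrin chain that binds vitronectin, with 3 and 28 counts in control and anti-PD-1, and Itga6, a laminin receptor chain, with 25 and 49, a ratio of 3.03 (1.83 to 5.12). Igf1, a growth factor made by stromal cells and macrophages, had 8 and 22 counts, a ratio of 4.25 (1.82 to 11). Among imprinted genes H19 had 12 and 32 counts, a ratio of 4.12 (2.06 to 8.78), and Grb10, an inhibitor of insulin signalling, 6 and 29, a ratio of 7.46 (3.04 to 22), while the antisense transcript Kcnq1ot1 had 93 and 24, a ratio of 0.399 (0.243 to 0.630), which cannot be told apart from reads of overlapping Kcnq1 without the strand setting. Axin2, a feedback inhibitor and target of WNT signalling, had 44 and 5 counts, a ratio of 0.175 (0.0543 to 0.441). It lies outside the lists and outside the 15 lower genes named by size, and it met the minimum in control only. Itgb5, Igf1, H19 and Grb10 met the minimum in anti-PD-1 only, which favours a higher call for them.

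By chromosome, 13 of 247 genes tested on chromosome 19 were higher (5.26%), against 2.69% of all genes. The median log2 ratio was lowest on chromosome 13 at -0.17 and chromosome 12 at -0.17, and highest on chromosome 5 at 0.06, leaving out the mitochondrial genome at -0.64. No test was made of these values.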
